A study of Homo sapiens with 8 samples.

Results

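UDP-glucuronosyltransferases (UGTs) are membrane enzymes of the endoplasmic reticulum that join glucuronic acid, taken from UDP-glucuronic acid, to small fat-soluble molecules, which makes them soluble and ends their action. In prostate cells the UGT2B enzymes are known above all for removing androgens: UGT2B15 and UGT2B17 conjugate dihydrotestosterone and its reduced metabolites, and both genes are known to be held down by androgens. The 9 genes described here, of 57905 in the expression table, were chosen by symbol and matched by Ensembl identifier: UGT2B7, UGT2B10, UGT2B11, UGT2B15, UGT2B17, UGT2B28, UGT1A6, UGT1A1 and UGT8. Their label, steroid-inactivating UGTs, fits the members unevenly. UGT1A1 is the bilirubin enzyme that also takes estrogens, UGT1A6 prefers small planar phenols, UGT2B10 is best known for joining glucuronic acid to amines, and UGT8 transfers galactose to ceramide to make the myelin lipid galactosylceramide.

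RNA sequencing covered 8 libraries of human prostate cancer cells. EnzaR is an enzalutamide-resistant line kept in 10 uM enzalutamide, an antiandrogen drug. EnzaR cells received 40 nM of a control siRNA (siNC, 2 libraries) or of siRNA against YAP1, the co-activator of the Hippo pathway (siYAP1, 2 libraries), for 48 h. LNCaP, an androgen-sensitive and enzalutamide-sensitive line, was a vehicle control without vesicles (control) or was given extracellular vesicles (EVs) for 48 h, with 1 library each. The vesicles came from EnzaR cells treated with control siRNA (EV-siNC) or depleted of YAP1 (EV-siYAP1) or of COUP-TFII, the nuclear receptor NR2F2 (EV-siCII). LNCaP medium held no drug, and LNCaP cells are not labelled as transfected. The labels do not name the parent line of EnzaR. They also do not say that the replicates were grown apart, so each p-value below sets differences against a library-to-library spread that could be technical.

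Total counts lay between 16682669 and 18248939 per library. YAP1 was at 59.8 and 49 CPM (counts scaled to library size by the trimmed mean of M values, TMM, over the 8 libraries) with the control siRNA and at 6.03 and 7.26 CPM after its depletion. The luminal keratins KRT8 and KRT18 were at 671 to 835 and 515 to 672 CPM in EnzaR and at 1030 to 1340 and 534 to 640 CPM in LNCaP, while the basal markers TP63 and KRT5 and the leukocyte markers PTPRC and CD3E were at 0 throughout. The 5 basal markers summed to 6.03 to 13.5 CPM in EnzaR and 3.19 to 4.76 CPM in LNCaP, mostly DST, and the 4 leukocyte markers to 0.115 to 0.276 and 0.273 to 0.792 CPM. Hepatocyte markers, listed because liver is the main site of UGT2B expression, summed to 3.59 to 4.23 CPM in EnzaR and 12.3 to 15.5 CPM in LNCaP. Other marker lists differed between the lines. Markers of androgen-independent prostate lines (KRT7, EPHA2, CAV1, AXL, VIM and CD44) summed to 14.9 to 26.1 against 290 to 309 CPM (VIM 0 to 2.07 against 261 to 285), neuroendocrine markers to 29.8 to 37.2 against 124 to 187 CPM, and fibroblast markers to 19 to 26.1 against 103 to 119 CPM (DCN and LUM under 1 CPM in every library). Their part in the line differences below was not tested.

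The UGT2B members lie on chromosome 4 and descend from one another by duplication, so how far they can be told apart by reads comes before their values. In the coordinates of the deposited table (hg19), UGT2B17 spans 69402902 to 69434245 and UGT2B15 spans 69512348 to 69536346, followed by UGT2B10 at 69681711 to 69696914, UGT2B7 at 69917081 to 69978705, UGT2B11 at 70065669 to 70080449 and UGT2B28 at 70146217 to 70160768. UGT2B15, UGT2B17 and UGT2B11 are on the minus strand. In the GENCODE v29 transcripts, the coding sequences of UGT2B15 and UGT2B17 differed at 55 of 1593 bases (96.5% identity), and those of UGT2B11 and UGT2B28 at 47 of 1590 (97% identity). UGT2B10 was 94.8% identical to UGT2B11, whereas UGT2B15 and UGT2B11 were 84.7% identical. The first 90 coding bases of the closest pairs are shown because they set which reads can be assigned, with capitals where the partners differ, at 5 bases in each pair:
UGT2B15: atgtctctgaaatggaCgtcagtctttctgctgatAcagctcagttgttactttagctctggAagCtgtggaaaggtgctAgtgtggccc
UGT2B17: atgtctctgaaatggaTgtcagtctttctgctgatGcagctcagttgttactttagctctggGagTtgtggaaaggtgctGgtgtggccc
UGT2B11: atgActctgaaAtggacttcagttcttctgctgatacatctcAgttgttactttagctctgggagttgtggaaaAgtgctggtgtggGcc
UGT2B28: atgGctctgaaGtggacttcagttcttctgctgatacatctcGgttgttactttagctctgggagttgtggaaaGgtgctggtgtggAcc

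Of all windows of 100 bases in the transcript, 12.7% of those of UGT2B15 occurred unchanged in UGT2B17, and 9.3% of those of UGT2B11 occurred in another UGT gene or pseudogene. A read from such a stretch belongs to neither copy alone, so UGT2B15 and UGT2B17 were also summed, as were UGT2B10, UGT2B11 and UGT2B28. If the authors' counting left such reads out, a sum of rows does not restore them.

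The UGT1A genes pose the problem in another form. On chromosome 2 each has its own first exon and all splice it to the same later exons, so that UGT1A6 (234600253 to 234681946, hg19) and UGT1A1 have 741 identical coding bases at the 3′ end, 46.3% of the coding sequence of UGT1A6. The row with the identifier of UGT1A1 also needs care. It spans 234526291 to 234681956 and so starts at -73962 bases relative to UGT1A6, whereas GENCODE v29 starts UGT1A1 68641 bases after it. The row with the identifier of UGT1A8 has the position that GENCODE v29 gives UGT1A1, and held 2 counts over the 4 EnzaR libraries together. Counts in the UGT1A1 row therefore cannot be tied to the first exon of UGT1A1, and the 9 UGT1A rows were summed as well. Of the windows of 100 bases in UGT1A6, 58.2% occurred unchanged in UGT1A3, so this sum may lack many reads of the shared exons.

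UGT2B15 and UGT2B17 carried most of the reads of these 9 genes in both lines, from 75.1% to 79% of the member counts in EnzaR libraries and from 93.3% to 94.6% in LNCaP libraries. UGT1A6 took 9.64% to 13.9% in EnzaR and at most 0.417% in LNCaP. The deposited FPKM divide by exonic length, so they allow levels to be compared between genes only as far as shared reads were counted. EnzaR cells had UGT2B15 at 32.3 ± 3.1 and UGT2B17 at 25.5 ± 1.8 FPKM (SD, n = 4). UGT2B11 followed at 6.5 ± 1.6 and UGT1A6 at 3.33 ± 0.4 FPKM. The weakly expressed members were UGT2B28 at 0.89 ± 0.24, UGT2B10 at 0.672 ± 0.17 and the UGT1A1 row at 0.162 ± 0.043 FPKM, and UGT2B28 and UGT2B10 lay within each other's spread. UGT2B7 and UGT8 were at 0.05 ± 0.036 and 0.0175 ± 0.0096 FPKM. In LNCaP the order changed: UGT2B17 at 18.2 ± 2.1 and UGT2B15 at 17.2 ± 2.7 FPKM overlapped, UGT2B11 (0.938 ± 0.26) and UGT2B10 (0.89 ± 0.24) overlapped, and UGT1A6 was at 0.02 ± 0.028 FPKM, while UGT8 had no count in any LNCaP library. The exonic length used for UGT1A6, 5180 bases, is longer than its longest GENCODE v29 transcript of 2479 bases, so its FPKM are low relative to the others.

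**Figure D1:**
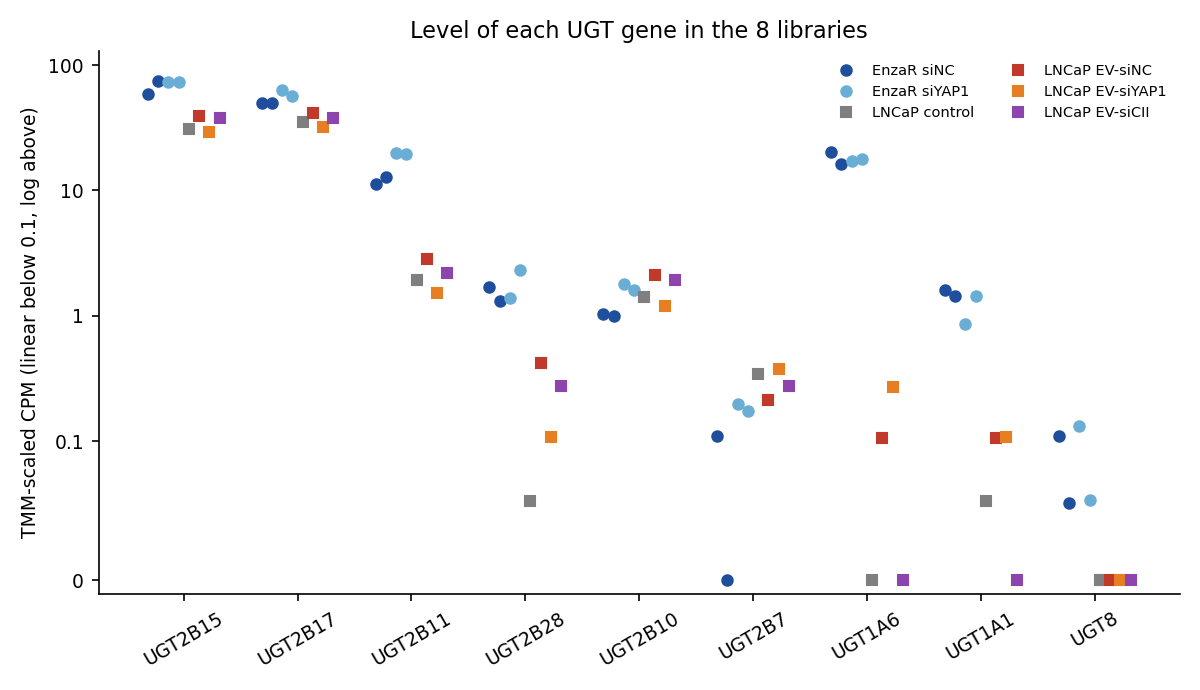
TMM-scaled CPM of each of the 9 genes (horizontal axis) in each library, on an axis that is linear below 0.1 CPM and logarithmic above. Circles are EnzaR and squares LNCaP libraries, coloured by group, 1 point per library. UGT2B15 and UGT2B17 sit highest in both lines, and UGT1A6 is at 16.3 to 20.1 CPM in EnzaR and at 0 to 0.27 CPM in LNCaP.

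The comparison of siYAP1 with siNC asked which UGT transcripts differ when EnzaR cells lose YAP1. UGT2B11, an enzyme whose best known substrates are oxidised fatty acids, rose, and it was the only member that did at the threshold used. UGT2B15, UGT2B17, UGT2B28, UGT1A6 and the UGT1A1 row did not pass the test, and neither did UGT2B10. Of the 9 genes, 7 had enough counts to be tested, and 1 was called, against 5.83% of 14948 genes called higher and 6.22% called lower (edgeR quasi-likelihood test, Benjamini-Hochberg adjusted p under 0.05).

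The 2 siNC libraries had UGT2B11 at 11.3 and 12.9 CPM, and the 2 siYAP1 libraries had it at 19.9 and 19.5 CPM. Both siYAP1 libraries were above both siNC libraries, as for 27.4% of all genes tested. The means were 12.1 ± 1.1 and 19.7 ± 0.29 CPM (SD, n = 2). The fitted log2 fold change was 0.71 (SE 0.15, 95% interval 0.39 to 1.03, edgeR adjusted p = 0.00849). Without siYAP1 replicate 1 the log2 fold change was 0.70 with an edgeR adjusted p of 0.152. That fit, on 1 siYAP1 library, called only 15 genes higher and 11 lower among all genes, against 872 and 930 with all 4 libraries. In bulk RNA, more RNA per cell and more cells of a kind that makes it cannot be told apart.

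UGT2B10, after UGT2B28 the closest copy of UGT2B11 in coding sequence, had an estimate of similar size from far fewer reads. It had 19 and 18 counts in siNC and 27 and 28 counts in siYAP1. The log2 fold change was 0.73 with an interval of -0.10 to 1.57 (edgeR adjusted p = 0.23), which includes 0. Both siYAP1 libraries were above both siNC libraries, as for 27.4% of genes tested. UGT2B28 had 31 and 24 counts in siNC and 21 and 40 in siYAP1, and the 2 groups overlapped. Summed, UGT2B10, UGT2B11 and UGT2B28 stood at 14 and 15.2 CPM in siNC and at 23.1 and 23.5 CPM in siYAP1, with a log2 fold change of 0.67 and SE 0.14 (edgeR adjusted p = 0.00712). UGT2B11 held 80.4% and 84.7% of that sum in siNC and 86.2% and 83.3% in siYAP1, so the sum mostly repeats UGT2B11.

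The sequence upstream of UGT2B10 and UGT2B11 is also close. Over the 150 bases before the RefSeq start site (GRCh38.p14) the 2 genes were 91.6% identical, and UGT2B15 was 70.5% identical to UGT2B10 and 73.7% to UGT2B11. These windows are shown because the copies share them unequally, with capitals on the longest run that all 3 hold. The windows lie at chr4:68670653-68670802 (minus strand), chr4:68815844-68815993 (plus) and chr4:69214749-69214898 (minus) for UGT2B15, UGT2B10 and UGT2B11:
UGT2B15: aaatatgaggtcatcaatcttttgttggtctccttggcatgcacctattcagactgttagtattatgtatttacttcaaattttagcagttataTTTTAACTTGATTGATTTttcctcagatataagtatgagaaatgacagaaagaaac
UGT2B10: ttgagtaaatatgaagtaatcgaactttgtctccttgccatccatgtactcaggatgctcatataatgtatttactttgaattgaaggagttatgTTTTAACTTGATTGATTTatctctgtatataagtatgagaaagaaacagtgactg
UGT2B11: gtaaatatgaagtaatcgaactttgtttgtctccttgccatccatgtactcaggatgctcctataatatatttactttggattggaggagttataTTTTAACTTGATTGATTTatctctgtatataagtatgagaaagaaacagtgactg

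The run of 18 bases was found, on either strand, in 3 of 35116 promoter windows of this length. These are the 3 windows from which the run was picked, so a count of at least 3 was fixed in advance. UGT2B17 and UGT2B28 had no window to search, so the count does not cover them. None of the 3 windows shown, nor that of UGT2B7, held the exact letters searched, each sought on both strands. These were TGTTTAC for forkhead factors (in 1.7% of all windows), GGAATG for TEAD factors (7.1%), TGACTCA for AP-1 (2.9%) and GCGTG for AHR (23.5%). The half-sites searched for the androgen receptor (TGTTCT, 7.4%) and HNF1 (GTTAAT, 3.5%) were absent too. All 3 windows shown do hold TATTTAC, a close variant of the forkhead letters. That variant was not searched for, so its share of all windows is not given. A match of letters is a description of the window only, and so is its absence.

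UGT2B15 and UGT2B17, the 2 main androgen-conjugating genes, did not pass the test when YAP1 was depleted. UGT2B17 had 50.2 and 49.7 CPM with siNC against 63.4 and 56.8 CPM with siYAP1, so both siYAP1 libraries were higher, as for 27.4% of genes tested. Its log2 fold change was 0.27 with SE 0.11 and an interval of 0.04 to 0.49, which did not pass the threshold (edgeR adjusted p = 0.11). UGT2B15 was at 58.4 and 74.1 CPM in siNC and at 72.6 and 73.1 CPM in siYAP1, and the groups overlapped: siNC replicate 1 alone was low. Its log2 fold change was 0.14 (interval -0.11 to 0.38, edgeR adjusted p = 0.464), and it was -0.03 without siNC replicate 1. The sum of both genes had a log2 fold change of 0.19 (interval -0.02 to 0.40, edgeR adjusted p = 0.207).

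These transcripts are poor in G and C, and the 2 siRNA groups differed by GC content across all genes. The GC content of the UGT2B members ran from 37.9% to 40%, lower than all but 6.98% to 14.1% of the genes tested. Genes within 1 percentage point of UGT2B15 had a median log2 fold change of -0.298 (n = 1021), against -0.025 over all genes, opposite in sign to the estimates for the UGT2B members. With a correction for GC content and length, UGT2B17 had a log2 fold change of 0.44 (edgeR adjusted p = 0.0165), the sum of UGT2B15 and UGT2B17 one of 0.38 (edgeR adjusted p = 0.0165) and UGT2B11 one of 0.92 (edgeR adjusted p = 0.00152), and UGT2B15 was not called at 0.31 (edgeR adjusted p = 0.0856). The same correction called 427 genes higher and 201 lower, and scaling by library totals called 291 higher and 1416 lower, so the balance of the calls depended on the scaling.

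UGT1A6, the UGT1A1 row and UGT1A3 did not pass the edgeR test with siYAP1. UGT1A6 was at 20.1 and 16.3 CPM in siNC and at 17.1 and 17.9 CPM in siYAP1, with overlapping groups and a log2 fold change of -0.05 (interval -0.37 to 0.26, edgeR adjusted p = 0.857). The sign turned under the GC and length correction (0.12), and no call was made in either fit. The UGT1A1 row had 29 and 26 counts in siNC and 13 and 25 in siYAP1 (log2 fold change -0.38, interval -1.24 to 0.49, edgeR adjusted p = 0.584). UGT1A3, at 1.37 and 1.27 CPM in siNC and 0.663 and 0.922 CPM in siYAP1, had a log2 fold change of -0.72 (edgeR adjusted p = 0.298). Its groups did not overlap, while 27.4% of genes tested did not overlap in the opposite direction. Over the 9 UGT1A rows summed, the log2 fold change was -0.12 (interval -0.42 to 0.18, edgeR adjusted p = 0.622). UGT2B7 had 2 and 0 counts in siNC and 3 in each siYAP1 library, and UGT8 had 1 or 2 counts in every EnzaR library. Neither could be tested at this depth, where 3 counts correspond to 0.165 to 0.199 CPM in EnzaR libraries.

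The fibroblast marker COL3A1 was at 3.34 CPM in siYAP1 replicate 2 and at 0 in the other 3 EnzaR libraries, and its part in these results was not tested. Without siYAP1 replicate 2 the UGT2B11 log2 fold change was 0.73 (edgeR adjusted p = 0.0346).

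**Figure D2:**
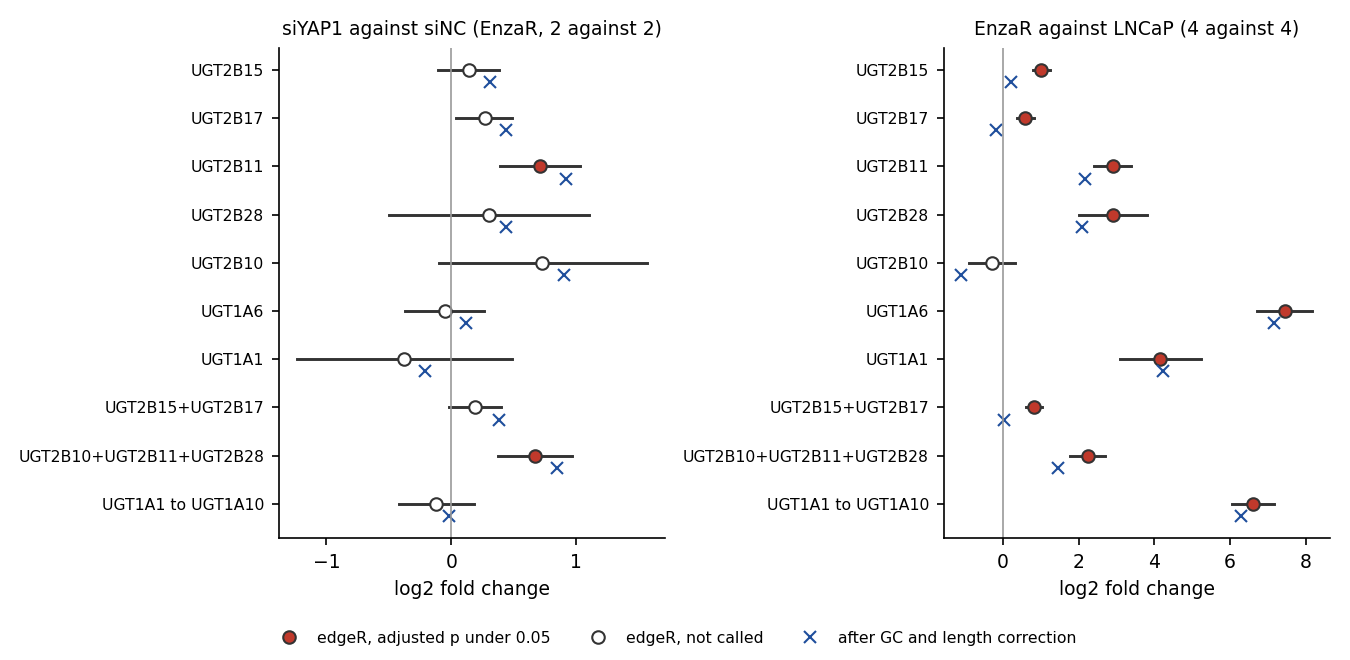
Log2 fold changes of the 7 members tested and of the 3 sums, for siYAP1 against siNC in EnzaR (left, 2 against 2 libraries) and for EnzaR against LNCaP (right, 4 against 4). Points are edgeR estimates with 95% intervals as bars, filled red where the adjusted p is under 0.05, and crosses are the estimates after correction for GC content and length, which moved the UGT2B15 and UGT2B17 sum from 0.19 to 0.38 on the left and from 0.81 to 0.02 on the right.

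Among lists of genes that act around the UGTs, 11 genes were called with siYAP1 (12.1% of all genes tested were called in either direction). None of the 11 was called without siYAP1 replicate 1. In the supply and use of UDP-glucuronic acid, 11 of 14 genes were tested, 1 rose and 1 fell, and the median log2 fold change was -0.20 (-0.025 over all genes). UGDH, which oxidises UDP-glucose to UDP-glucuronic acid, fell by 0.37 on the log2 scale, from 49.7 ± 4.2 to 38.4 ± 0.26 CPM (SD, n = 2; edgeR adjusted p = 0.0393). NUDT14, a hydrolase of UDP-glucose, rose by 0.40 (edgeR adjusted p = 0.0353). With the GC and length correction these were -0.15 and 0.16 and were no longer called (edgeR adjusted p = 0.47 and 0.425).

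Among enzymes that oxidise or reduce androgens, 10 of 19 were tested, 2 rose and 1 fell. AKR1C2, which reduces dihydrotestosterone, rose by 0.35 (edgeR adjusted p = 0.0312, 0.259 without siYAP1 replicate 1), and HSD17B10, which oxidises steroids in mitochondria, rose by 0.41 (edgeR adjusted p = 0.0188, 0.149 with the GC correction). RDH11, a retinal and steroid reductase, fell by 0.50 (edgeR adjusted p = 0.00673, 0.0759 with the GC correction). Of 7 organic anion transporters tested, 2 fell, ABCC4 by 0.35 (edgeR adjusted p = 0.0319) and ABCG2 by 1.55 at 1.46 ± 0.20 and 0.487 ± 0.13 CPM (SD, n = 2; edgeR adjusted p = 0.0431). Neither was called with the GC correction (edgeR adjusted p = 0.632 and 0.133).

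Among regulators known to act on UGT genes, NFE2L2, the oxidative stress factor, fell (log2 fold change -0.41, edgeR adjusted p = 0.0447, 0.209 with the GC correction). Of 9 androgen-responsive genes tested, 1 fell, NDRG1 (log2 fold change -0.48, edgeR adjusted p = 0.00751, 0.135 without siYAP1 replicate 1). Of 5 sulfation genes tested among 10, edgeR, DESeq2 and limma-voom each called 0, and 1 was lower at an unadjusted p under 0.05. Of the other UDP-glycosyltransferases, 2 of 14 were tested, UGT1A3 and UGCG, the ceramide glucosyltransferase, and 0 were called by edgeR, by DESeq2 or at an unadjusted p under 0.05.

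EnzaR and LNCaP cells differed in most UGTs, and most in UGT1A6. UGT1A6, UGT2B11, UGT2B28 and the UGT1A1 row were all far higher in EnzaR, UGT2B15 and UGT2B17 were higher by 2.02 and 1.51 times in mean CPM, and UGT2B10 did not pass the test. Of the 9 genes, 7 were tested, 6 were higher in EnzaR and 0 lower, against 36.2% of 15640 genes called higher and 36.4% called lower (edgeR quasi-likelihood test, adjusted p under 0.05). UGT2B28, UGT1A6 and the UGT1A1 row passed the count filter through their EnzaR libraries alone, so they had to differ to be tested at all. DESeq2, limma-voom and an unadjusted edgeR p under 0.05 gave the same tally, but with the GC and length correction UGT2B15 and UGT2B17 were not called and UGT2B10 was called lower. Line, drug in the medium, siRNA transfection and culture cannot be told apart in this comparison, and the treatments within each line count as spread.

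UGT1A6 had 365, 295, 258 and 311 counts in the EnzaR libraries and 0, 2, 5 and 0 in LNCaP (control, EV-siNC, EV-siYAP1, EV-siCII). The lowest EnzaR library, at 16.3 CPM, was far above the highest LNCaP library, at 0.27 CPM. The ratio of mean CPM was 190, with a counting interval of 90.5 to 466. The fitted log2 fold change of 7.44 (SE 0.34, edgeR adjusted p = 6.65e-12) ranked 13 of 15640 genes by size. UGT1A6 passed the count filter through EnzaR alone, so its edgeR p and rank are given as descriptions. An exact permutation test over the 8 libraries gave p = 0.0286 (two-sided), the smallest it can give. In the LNCaP control library 0 counts allow up to 3 counts, or 0.171 CPM (0.21 CPM by the exact 95% limit).

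Other UGT1A rows followed at lower counts. The UGT1A1 row had 29, 26, 13 and 25 counts in EnzaR against 1, 2, 2 and 0 in LNCaP, a ratio of 19.7 (counting interval 8.2 to 62.5; log2 fold change 4.16, edgeR adjusted p = 1.07e-06). UGT1A3 had 74 counts in EnzaR and 0 in LNCaP, while UGT1A4, UGT1A5 and UGT1A9 had 0 in all 8 libraries. UGT1A6 made up 82.6% to 91.2% of UGT1A counts in the EnzaR libraries, and the UGT1A sum was at 18.8 to 23.1 CPM in EnzaR and at 0.0569 to 0.378 CPM in LNCaP (log2 fold change 6.60, SE 0.26, edgeR adjusted p = 1.21e-12). The UGT1A1 row and this sum also passed the count filter through EnzaR alone, so their edgeR p-values are given as descriptions.

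Within the UGT2B group, UGT2B11 and UGT2B28 stood apart from their neighbours. UGT2B11 was at 11.3 to 19.9 CPM in the 4 EnzaR libraries and at 1.94, 2.85, 1.51 and 2.19 CPM in LNCaP control, EV-siNC, EV-siYAP1 and EV-siCII, with no overlap, as for 32.8% of all genes tested. The log2 fold change was 2.90 with SE 0.23 (edgeR adjusted p = 6e-09). UGT2B28, a conjugator of androgens and estrogens, had 116 counts in EnzaR and 16 in LNCaP, a ratio of 7.81 in mean CPM (counting interval 4.56 to 14; log2 fold change 2.91, edgeR adjusted p = 1.02e-05). That p is a description, since UGT2B28 passed the count filter through EnzaR alone. UGT2B10 went the other way without passing: 92 counts in EnzaR and 122 in LNCaP, log2 fold change -0.30 (interval -0.91 to 0.31, edgeR adjusted p = 0.356). UGT2B11 held 80.4% to 86.2% of the reads of this trio in EnzaR and 50% to 56.7% in LNCaP.

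UGT2B15 was at 58.4, 74.1, 72.6 and 73.1 CPM in EnzaR and at 31, 39.4, 29.4 and 37.8 CPM in LNCaP, and every EnzaR library was above every LNCaP library. Its log2 fold change was 1.01 with SE 0.11 (edgeR adjusted p = 4e-07). UGT2B17 was at 49.7 to 63.4 CPM in EnzaR and 31.9 to 41.1 CPM in LNCaP, with a log2 fold change of 0.59 and SE 0.11 (edgeR adjusted p = 8.58e-05). Both calls ended when GC content and length were corrected for: UGT2B15 had 0.22 (edgeR adjusted p = 0.0869), UGT2B17 had -0.19 (edgeR adjusted p = 0.156) and their sum, 0.81 before, had 0.02 (edgeR adjusted p = 0.851). Genes as poor in G and C as UGT2B15 had a median log2 fold change of 0.362 (n = 1038), and those also within 0.5 log2 units of its length one of 0.857 (n = 106), against -0.008 over all genes. UGT2B10 was then lower in EnzaR, at -1.10 (edgeR adjusted p = 0.00277). UGT2B11, UGT2B28 and UGT1A6 stayed called, at 2.16, 2.10 and 7.16. Between siNC and the LNCaP control without vesicles, in a fit that takes the lone control to vary like the EnzaR replicates, the log2 fold changes were 1.11 for UGT2B15, 0.51 for UGT2B17, 2.65 for UGT2B11 and -0.46 for UGT2B10, the last with an edgeR adjusted p of 0.44.

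The balance between UGT2B15 and UGT2B17, which have the same exonic length (2077 bases) and GC contents of 39% and 38.6%, leaned to UGT2B15 in EnzaR and slightly to UGT2B17 in most LNCaP libraries. UGT2B17 made up 46.3% and 40.2% of their summed counts in siNC and 46.6% and 43.7% in siYAP1, against 53.3% in LNCaP control, 51% in EV-siNC, 52.1% in EV-siYAP1 and 49.9% in EV-siCII. Every EnzaR library was below every LNCaP library. The closest were siYAP1 replicate 1, with an exact 95% binomial interval of 44.5% to 48.8%, and EV-siCII, with 47.2% to 52.5%, whose intervals overlap. The intervals of the 2 siNC replicates, 44% to 48.5% and 38.1% to 42.2%, did not overlap. These intervals cover counting error only.

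**Figure D3:**
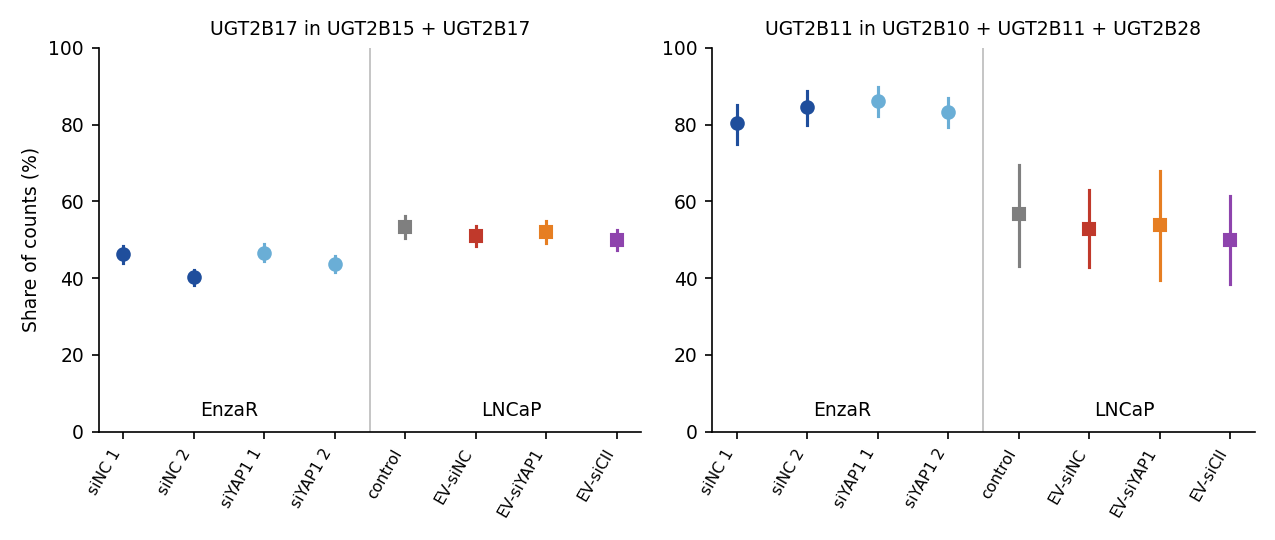
Share of UGT2B17 in the summed counts of UGT2B15 and UGT2B17 (left) and of UGT2B11 in those of UGT2B10, UGT2B11 and UGT2B28 (right), in percent, for each library on the horizontal axis. Bars are exact 95% binomial intervals, which cover counting error only. UGT2B17 is at 40.2% to 46.6% in EnzaR and 49.9% to 53.3% in LNCaP, and UGT2B11 at 80.4% to 86.2% and 50% to 56.7%.

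The rarest members showed no high level in either line. UGT2B7, the main opioid-conjugating UGT of liver and a broad steroid enzyme, had 2, 0, 3 and 3 counts in EnzaR and 6, 4, 7 and 5 in LNCaP. Its ratio of mean CPM was 0.40, with a counting interval of 0.149 to 0.904, and the lines did not overlap (exact permutation p = 0.0286, two-sided, the smallest possible). The separation is narrow: siYAP1 replicate 1 was at 0.199 CPM (counting limits 0.041 to 0.581) and EV-siNC at 0.211 CPM (0.0576 to 0.541). In the other direction 32.8% of genes tested did not overlap, and the share in this direction is not given here. UGT2B7 was too low for edgeR, whose test therefore gave no value. UGT8 had 6 counts in EnzaR and 0 in LNCaP, too few for a fold. Of the 11 genes in the galactosylceramide pathway around UGT8, 8 were tested, 1 was higher in EnzaR and 4 lower (with siYAP1, 2 fell, SPTLC1 by 0.70 and ASAH1 by 0.35; edgeR adjusted p = 0.00449 and 0.0427, and 0.12 and 0.257 without siYAP1 replicate 1). FA2H, which hydroxylates the fatty acid of these lipids, was at 1.98 ± 0.28 CPM in EnzaR and 8.37 ± 1.1 CPM in LNCaP (SD, n = 4; edgeR adjusted p = 1.91e-08), and ARSA, which desulfates sulfatide, was at 13.4 ± 1.1 and 67.9 ± 5.5 CPM (edgeR adjusted p = 3.68e-12). PSAP, the precursor of the saposins, had a log2 fold change of -1.25 (edgeR adjusted p = 1.14e-09).

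In the lists around the UGTs, calls between the lines are to be read against the 72.6% of all genes tested that were called in either direction. Of 11 enzymes tested that oxidise or reduce androgens, 7 were higher and 3 lower in EnzaR, and the median log2 fold change was 0.78 (-0.008 over all genes). AKR1C2 was at 69.3 ± 9.9 CPM in EnzaR and 2.33 ± 0.58 CPM in LNCaP (SD, n = 4; log2 fold change 4.89, edgeR adjusted p = 1.27e-13). AKR1C1 and AKR1C3, close copies whose reads may be shared with it, had log2 fold changes of 3.44 and 2.66. CYP3A5, which hydroxylates testosterone, was at 0.11 to 0.634 CPM in EnzaR and 2.39 to 3.95 CPM in LNCaP, and since it passed the count filter through its LNCaP libraries alone, it had to differ to be tested.

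Of 11 genes tested in the supply and use of UDP-glucuronic acid, 4 were higher and 4 lower. UGDH was at 44.1 ± 7 CPM in EnzaR and 31.6 ± 2.1 CPM in LNCaP (SD, n = 4; log2 fold change 0.48, edgeR adjusted p = 0.00107), but at -0.12 with the GC and length correction. XYLT2, which starts proteoglycan chains with xylose, and PGM1, which feeds glucose into the pathway, were lower (log2 fold changes -0.97 and -0.89, edgeR adjusted p = 3.25e-08 and 9.62e-07). Steroid sulfation, the other main route of steroid conjugation, had 2 higher and 2 lower of 6: SULT2B1, a sulfotransferase of hydroxysteroids, and STS, the steroid sulfatase, had log2 fold changes of 0.90 and 1.19 (edgeR adjusted p = 1.21e-06 and 1.44e-05). Of 5 organic anion transporters tested, a list that holds SLCO uptake carriers beside the ABC exporters, 3 were higher and 2 lower. The exporters ABCC5 and ABCC6 had log2 fold changes of 0.88 and -1.89 (edgeR adjusted p = 5.74e-07 and 4.35e-07).

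Androgen-responsive genes were higher in EnzaR for 7 of 9 tested and lower for 1. KLK3 was at 1160 to 1310 CPM in EnzaR and 40.9 to 48.2 CPM in LNCaP (log2 fold change 4.82, edgeR adjusted p = 6.01e-16), and NDRG1 was the lower one, at 71.2 ± 13 against 388 ± 85 CPM (SD, n = 4). FOXA1, a pioneer factor known to act on UGT2B genes, and ARNT, the partner of AHR, had log2 fold changes of -0.67 and -0.84 (edgeR adjusted p = 6.29e-07 and 3.63e-07).

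In LNCaP cells the question was whether vesicles from EnzaR cells, with or without YAP1 or COUP-TFII in the donor cells, went with other UGT levels. The main UGT2B transcripts differed by less than 1.5 times between any of the 4 libraries compared, and UGT1A6 did not approach its EnzaR level. In TMM-scaled CPM, UGT2B15 and UGT2B17 were highest in EV-siNC and lowest in EV-siYAP1, but EV-siYAP1 and control were not clearly apart. The counting interval of their log2 ratio was -0.25 to 0.09 for UGT2B15 and -0.32 to 0.01 for UGT2B17. Scaled by library totals, the UGT2B15 log2 ratio was 0. In deposited FPKM, UGT2B15 was at 14.9 in EV-siYAP1 and 14.86 in control, so which was lower depended on the scaling. With 1 library per group there is no test, and all 5 comparisons share libraries.

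UGT2B15 had 545 counts in control, 747 in EV-siNC, 543 in EV-siYAP1 and 691 in EV-siCII, or 31, 39.4, 29.4 and 37.8 CPM. UGT2B17 had 622, 779, 590 and 687 counts, or 35.4, 41.1, 31.9 and 37.6 CPM. Both genes thus put EV-siNC and EV-siCII above control and EV-siYAP1. For EV-siYAP1 against EV-siNC the log2 ratio was -0.42 for UGT2B15 (exact 95% counting interval -0.59 to -0.26), -0.37 for UGT2B17 (-0.52 to -0.21) and -0.39 for their sum (-0.51 to -0.28). Among 9032 genes at 10 CPM or more in either library, 98.5% had a higher ratio than UGT2B15 and 97.6% a higher one than UGT2B17, although 0 of these 2 members reached the 1.5-fold that 0.365% of genes passed downward and 0.332% upward. The GC and length correction left these ratios at -0.45 and -0.39.

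Replicates of a group also differed. Their ratios for UGT2B15 and UGT2B17 were smaller than for EV-siYAP1 against EV-siNC, but the SD over all genes was not. UGT2B15 had a log2 ratio of 0.34 between siNC replicate 2 and replicate 1 (counting interval 0.23 to 0.46), whereas UGT2B17 had -0.01 and their sum 0.19. In size, that UGT2B15 interval overlaps the one for EV-siYAP1 against EV-siNC (-0.59 to -0.26). Between the siYAP1 replicates the log2 ratios were 0.01 for UGT2B15, -0.16 for UGT2B17 and -0.07 for the sum. The share of genes past 1.5-fold between those replicates was 0.607% upward and 0.195% downward, and between the siYAP1 replicates it was 0.536% and 0.212%.

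For EV-siNC against control the log2 ratio was 0.35 for UGT2B15 (0.18 to 0.51) and 0.22 for UGT2B17 (0.06 to 0.37), and neither reached the 1.5-fold that 2.35% of 8941 genes passed upward and 0.302% downward. Genes of like GC content to UGT2B15 had a median of 0.305 in that comparison, and those also of like length one of 0.049 (n = 35). After the GC and length correction UGT2B15 and UGT2B17 were at 0.13 and -0.01. EV-siCII against EV-siNC gave -0.06 (-0.21 to 0.09) and -0.13 (-0.28 to 0.02), with 0 of the 2 members past 1.5-fold (0.0781% of genes upward, 0.357% downward). Against control, EV-siYAP1 gave -0.08 and -0.15 (4.74% of genes past 1.5-fold upward, 1.76% downward) and EV-siCII gave 0.28 and 0.08 (1.07% and 0.393%), again with 0 of the 2 members past it. With the GC and length correction these were -0.32 and -0.41 for EV-siYAP1, and 0.12 and -0.09 for EV-siCII, which turned the sign of UGT2B17.

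UGT2B11, UGT2B10 and UGT2B28 were also highest in EV-siNC, at counts too low for a firm ratio. UGT2B11 had 34, 54, 28 and 40 counts in control, EV-siNC, EV-siYAP1 and EV-siCII, UGT2B10 had 25, 40, 22 and 35, and UGT2B28 had 1, 8, 2 and 5. For EV-siYAP1 against EV-siNC the log2 ratio was -0.87 for UGT2B11 (counting interval -1.63 to -0.23) and -0.77 for UGT2B10 (-1.65 to -0.04). EV-siNC was the highest and EV-siCII the next in all 5 of these UGT2B genes, an order held by 6.35% of 15127 genes at 1 CPM or more. This order was noticed after the values were seen. Reads shared between near copies may also tie the 5 genes together, so the order is given as a description. The order did not hold for UGT2B17 and UGT2B11 with the GC and length correction. EV-siNC and EV-siCII were then at -0.01 and -0.09 relative to control on the log2 scale for UGT2B17. For UGT2B11 they were at 0.28 and -0.03. Corrected values for UGT2B10 and UGT2B28 are not given here. UGT2B7 did not share the order, with 6, 4, 7 and 5 counts. UGT1A6 had 0, 2, 5 and 0 counts and the UGT1A1 row 1, 2, 2 and 0, none above 0.27 CPM.

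**Figure D4:**
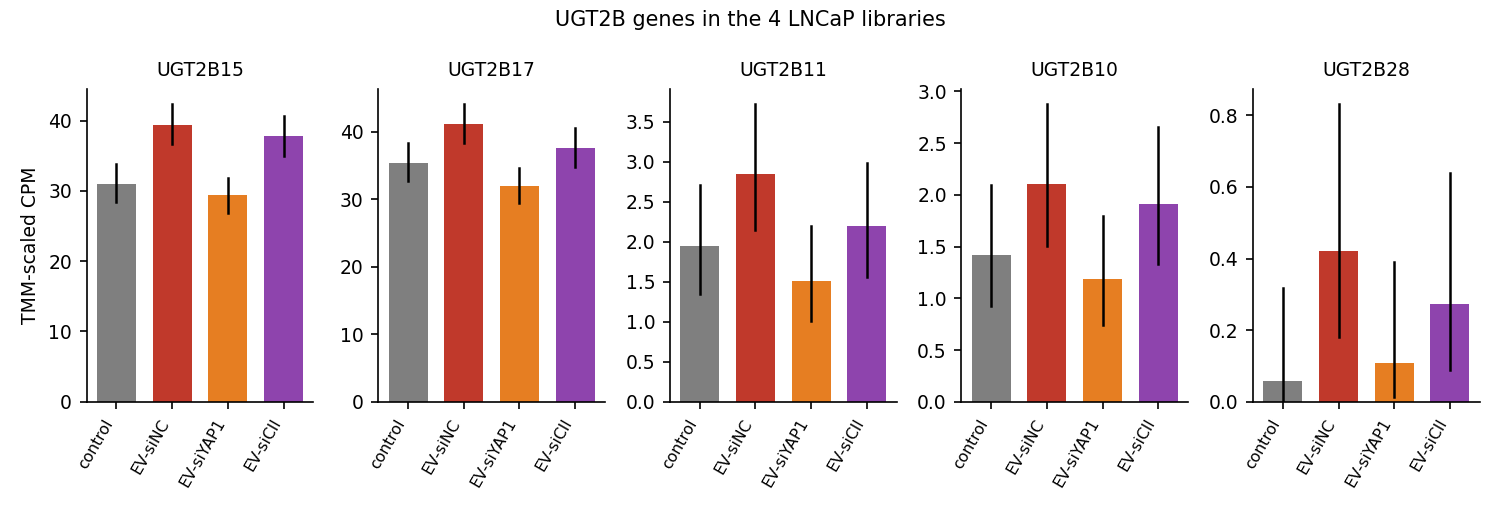
TMM-scaled CPM (vertical axes, each from 0) of 5 UGT2B genes in the 4 LNCaP libraries, 1 library per bar. Lines are exact 95% counting intervals, which do not cover the spread between cultures. EV-siNC is the highest bar in each panel, from 41.1 CPM for UGT2B17 to 0.422 CPM for UGT2B28.

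Across all 8 libraries, the genes whose profile lay closest to the summed UGT2B15 and UGT2B17 were CSAG1, ST7, ERMARD, TAMM41 and ACBD6, among 10608 candidates with a mean of 5 CPM. Likeness was the root mean square difference of centred log2 CPM, from 0.0657 for CSAG1 to 0.086 for ACBD6. ST7 was at 83.1 CPM on average in EnzaR and 45.3 CPM in LNCaP. For UGT1A6 the closest were AUNIP (0.609), ID1 (0.671), TM4SF18-AS1 (0.685), VAV3 (0.698) and SYT4 (0.709), which lay farther off, and none of the 5 was above 3.95 CPM in a LNCaP library. VAV3 was at 35.4 CPM in EnzaR and 0.716 CPM in LNCaP.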

How the data were processed

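RNA from 8 libraries (2 EnzaR groups with 2 each, 4 LNCaP groups with 1 each) was measured as 1 deposited table of raw read counts and FPKM per gene. Counts were made by the authors. Tools listed in the submitters' processing notes, with no order, are HTSeq 0.6.1, HISAT2 2.0.1, cutadapt 1.9.1 and DESeq2, on GRCh37 (hg19). Strand setting and annotation release: not given in the sources used here. Reads of overlapping or antisense genes may therefore be mixed. The deposited FPKM were recomputed from the counts and exonic lengths within 0.0051 for 463240 values. Symbols were matched for 40166 of 57905 Ensembl identifiers, which hold 99.03% of counts.

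Total counts ran from 16682669 to 18248939 per library, so 3 counts were worth 0.158 to 0.199 CPM. The 8 libraries were compared pairwise, and no pair agreed within sampling noise (chi-square per degree of freedom at least 3.7). Tests were edgeR 4.0.16 quasi-likelihood tests in R 4.3.3 (filterByExpr, TMM, robust fit), Benjamini-Hochberg adjusted over all genes with a threshold of 0.05, checked on simulated data. EnzaR siYAP1 was tested against siNC on 4 libraries, and EnzaR against LNCaP on 8. Near copies were summed and refitted in the whole table. LNCaP groups of 1 library were compared as log2 ratios of TMM-scaled CPM with a prior count of 2, with exact 95% binomial limits for counting error, over genes with 10 CPM in either library and a threshold of 1.5-fold. Folds of mean CPM carry counting intervals only.

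Alternatives were DESeq2 1.42.0 (test and size factors), limma-voom (limma 3.58.1), library totals, a smooth GC and length correction (mgcv 1.9.3, GC available for 97.3% and 97.4% of genes tested), other filters, each library left out, a replicate block, other designs and an exact permutation test of 4 against 4 libraries on log2(CPM + 0.1). Coding sequences and transcripts came from GENCODE v29 and promoters from RefSeq (GRCh38.p14), where 7 of 9 members had an entry. The members and gene lists were chosen with earlier results of these data known. Named in the text are all members, examples from the up to 4 called genes per list and direction with the smallest adjusted p (not all of these are printed), and the 5 genes most like each of the summed UGT2B15 and UGT2B17 and UGT1A6. SRD5A2 was not analysed here, and values of some regulators are not reported here.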

Additional observations from a re-analysis of the deposited data

How the results depend on the processing

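The rise of UGT2B11 with siYAP1 kept its direction and its call under 13 of 14 alternatives, with log2 fold changes of 0.61 to 0.92, and lost the call only without siYAP1 replicate 1. The sum of UGT2B10, UGT2B11 and UGT2B28 did the same, at 0.61 to 0.75 with 1 library left out each time (edgeR adjusted p up to 0.129). The sum of UGT2B15 and UGT2B17 was called only with the GC and length correction, at 0.38 with or without the replicate block. Uncalled estimates changed sign for UGT2B15 (-0.03 without siNC replicate 1 and up to 0.33 without another library), UGT2B28 (-0.12 without siYAP1 replicate 2, up to 0.60 without another) and UGT1A6 (0.12 with the GC and length correction, 0.10 without siNC replicate 1, down to -0.18 without another, 0.13 with block and correction). Over all genes, 872 were higher and 930 lower. Library totals gave 291 and 1416, the GC and length correction gave 427 and 201, and DESeq2 gave 576 lower. With 1 library left out, 15 to 940 were higher and 11 to 829 lower, the fewest without siYAP1 replicate 1. Such a fit takes the spread of a lone library to equal that of the other group.

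Deviations of same-numbered libraries correlated at -0.079, and the other pairing gave 0.079. With 2 libraries per group these values mirror each other. They cannot tell whether same-numbered libraries were prepared together. The replicate block gave 564 genes higher, and 451 higher with 278 lower when joined to the GC and length correction. UGT2B11 kept its call with the block (0.71, edgeR adjusted p = 0.00257).

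For EnzaR against LNCaP, UGT2B11 kept its direction and call under every alternative. So did UGT2B28, UGT1A6 and the UGT1A1 row where tested, but the count filter they passed through EnzaR alone largely fixes this. The GC and length correction left UGT2B15 and UGT2B17 uncalled, turned UGT2B17 to -0.19 and brought their sum to 0.02. It also turned UGDH to -0.12, SPTLC1 to -0.15 and CERS2 to 0.02, and RDH11 was at 0.01 in siNC against control. The cause was not tested.

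In LNCaP the number of genes past 1.5-fold depended on the settings. For EV-siNC against control it was 237, with library totals 398, with the GC and length correction 83, with a floor of 1 CPM 1514, and past 2-fold 9. For EV-siYAP1 against EV-siNC it was 63, with the lower floor 1079 and past 2-fold 5. For EV-siCII against EV-siNC it was 39, 989 and 7. For EV-siYAP1 against control it was 587, with the GC and length correction 289, with the lower floor 2180 and past 2-fold 37. For EV-siCII against control it was 130, with library totals 218, with the correction 62, with the lower floor 1293 and past 2-fold 11. Per exonic length the UGT2B17 shares were the same. Depth limits UGT2B7, UGT2B28 in LNCaP, UGT8 and the UGT1A rows in LNCaP to a few counts.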

Other observations

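Genes flanking the UGT1A cluster within 500 kb also differed between the lines, some strongly and some little. HJURP, a chaperone that loads the centromere histone, lies 60106 bases from the cluster and was at 64.5 CPM in EnzaR and 2.25 CPM in LNCaP (log2 fold change 4.84, edgeR adjusted p = 2.91e-14). TRPM8, a cold-sensing ion channel known as an androgen-responsive prostate gene, lies 144087 bases away and was at 41 and 1.15 CPM (log2 fold change 5.14, edgeR adjusted p = 4.42e-12). USP40, 50863 bases away, was at 60 and 61.9 CPM (log2 fold change -0.05, edgeR adjusted p = 0.633), and DGKD was at 52.2 and 62 CPM (log2 fold change -0.25, edgeR adjusted p = 0.0164). ATG16L1 and MSL3P1 had log2 fold changes of 1.02 and 1.39 (edgeR adjusted p = 6.57e-07 and 1.43e-08), and INPP5D had -1.29 (edgeR adjusted p = 0.00134).

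Around the UGT2B cluster the expressed neighbours did not stand higher in EnzaR. YTHDC1, a reader of methylated RNA, was at 38.4 CPM in EnzaR and 40.1 CPM in LNCaP (log2 fold change -0.06, edgeR adjusted p = 0.673). TMPRSS11E, a serine protease of epithelia, had 61 counts in EnzaR and 143 in LNCaP (log2 fold change -1.13, edgeR adjusted p = 0.00462), and UBA6-DT had a log2 fold change of -0.94 (edgeR adjusted p = 8.59e-06). These neighbours were chosen by position and named after their values were seen.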
